A study of Homo sapiens with 6 samples.

Results

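The PKA subunits and PKI inhibitors are 9 genes of the cAMP-dependent protein kinase system: the catalytic subunits PRKACA and PRKACB, the regulatory subunits PRKAR1A, PRKAR1B, PRKAR2A and PRKAR2B, and the inhibitors PKIA, PKIB and PKIG. The members were every probe set annotated to exactly 1 of these symbols, which gave 32 of the 49293 probe sets in the table, for 9 of 18132 genes. The set was proposed because PKIB had the largest rise of all genes, each read by its brightest probe set, in the comparison of knockdown with control cells, so the values of PKIB in that comparison are a description and carry no test. The comparison was also known when the other 8 genes were chosen, and counts over the members are descriptions as well. Total RNA was hybridised to 6 arrays, 3 from A375 cells, a human melanoma line, and 3 from A375 cells that stably express a short hairpin RNA against the kinase gene MAP4K5. Both groups were grown without treatment in DMEM with serum and antibiotics, and the labels call the 3 samples of each group biological replicates. The labels do not say whether control cells held an empty vector, how many hairpins were used or whether the stable line was 1 clone, so effects of losing MAP4K5 and of deriving the line cannot be told apart.

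Protein kinase A is a tetramer of a regulatory dimer and a pair of catalytic subunits. When cAMP binds the regulatory subunits, the catalytic subunits are freed and phosphorylate targets that include the transcription factor CREB. Type I regulatory subunits (PRKAR1A, PRKAR1B) are mostly cytosolic, while type II subunits (PRKAR2A, PRKAR2B) are held at membranes and organelles by A-kinase anchoring proteins. The PKI proteins are small heat-stable inhibitors that sit in the substrate groove of a free catalytic subunit as a pseudosubstrate and can carry it out of the nucleus. In melanocytes the pathway links the melanocortin receptor MC1R, through cAMP and CREB, to the transcription factor MITF.

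The promoter sequences of PKIB are shown because its rise chose the set. RefSeq (GRCh38.p14) lists 3 transcription start sites for PKIB, at chr6:122471671-122471970, chr6:122610155-122610454 and chr6:122652479-122652778, each window on the plus strand and running from 250 bases before to 50 bases after a start. Which start A375 cells use was not measured by these arrays. Capitals mark matches, on either strand, to the cAMP response element TGACGTCA, its 5-base core TGACG, the AP-1 element TGACTCA and the E-box CACGTG. The core also lies inside every full element.
PKIB start 1: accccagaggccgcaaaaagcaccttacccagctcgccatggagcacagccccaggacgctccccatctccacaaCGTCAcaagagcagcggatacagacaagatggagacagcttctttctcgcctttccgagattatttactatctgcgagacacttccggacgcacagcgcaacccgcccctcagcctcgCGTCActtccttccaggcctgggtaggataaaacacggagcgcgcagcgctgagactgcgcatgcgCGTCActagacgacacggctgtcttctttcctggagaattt
PKIB start 2: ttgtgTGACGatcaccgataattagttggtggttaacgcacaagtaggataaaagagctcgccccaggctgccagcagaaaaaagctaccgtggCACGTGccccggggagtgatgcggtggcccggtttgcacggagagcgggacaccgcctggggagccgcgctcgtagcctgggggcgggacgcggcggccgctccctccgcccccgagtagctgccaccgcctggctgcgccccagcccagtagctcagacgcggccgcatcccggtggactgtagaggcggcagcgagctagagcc
PKIB start 3: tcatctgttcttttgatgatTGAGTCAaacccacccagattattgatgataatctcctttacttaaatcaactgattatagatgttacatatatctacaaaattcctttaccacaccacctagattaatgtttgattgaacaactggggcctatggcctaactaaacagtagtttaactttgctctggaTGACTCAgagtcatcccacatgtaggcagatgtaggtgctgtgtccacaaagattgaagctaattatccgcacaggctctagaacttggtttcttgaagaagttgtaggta
The first window held 3 cores and none of the other elements. The second held 1 core and 1 E-box, and the third held 2 AP-1 elements, at 230 and 61 bases before the start. The full element TGACGTCA was in 0 of the 3 windows. Of 34943 RefSeq windows of this length, 24.5% held the core, 4.96% an AP-1 element, 7.23% the E-box and 1.84% the full element. Windows were listed for 8 of the 9 genes, 25 in all, and 11 of the 25 held the core. The full element occurred in 2 of the 25, a pair of overlapping windows of PRKAR1A that share 1 match. The AP-1 element occurred in 1 of the 25, the third PKIB window, and the E-box in 3, one each of PKIB, PRKAR1A and PRKAR2B. A match to these letters shows neither binding nor use of the site.

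Levels are RMA intensities on a linear scale. RMA subtracts background, gives all arrays the same distribution and combines the probes of each set into 1 value, and folds of dim probe sets come out too small. The median intensity of an array was 4.85 to 4.94. MAP4K5 was lower in all 3 knockdown arrays at each of its 3 probe sets. At the brightest it stood at 77.7, 78.1 and 76.3 in control and at 19.7, 18.8 and 20.3 in knockdown cells, a log2 difference of -1.98 ± 0.082 (SE, limma adjusted p = 5.55e-05, n = 3 per group). Control replicate 2 lay closer to the knockdown arrays (SD of the log2 difference over all probe sets 0.264 to 0.273) than to the other controls (0.304 and 0.311). Its value is given beside the results that follow. Of 9 measured melanocyte and neural crest markers, SOX10, PAX3, S100B and MITF lay above the median probe set (mean intensity 4.88) in every array. S100B was lower in knockdown cells (67.8 ± 13.5 against 27.1 ± 2.54, SD, n = 3 each, log2 -1.31, limma adjusted p = 0.00339), as was SOX10 (33.5 ± 4.78 against 22.9 ± 0.783, -0.54, adjusted p = 0.0387), while MITF was higher (60.9 ± 16.0 against 118.4 ± 3.06). PAX3 stood at -0.31 and was not called (adjusted p = 0.190). Control replicate 2 was the control nearest the knockdown arrays for each of these genes, at 55.2 for S100B, 28.3 for SOX10, 79.4 for MITF and 31.6 for PAX3. Fits without 1 array are not given for S100B and SOX10. S100A1 lay near the median, at 4.43 to 5.74, and the pigment genes PMEL, MLANA, TYR and TYRP1 lay at 2.34 to 3.90 in all arrays, below it. Leukocyte markers (PTPRC, CD3E, CD14) lay at 1.92 to 3.15. Summed epithelial markers, nearly all of it KRT18, were 1187 to 1336 in control and 1888 to 2192 in knockdown arrays. Fibroblast markers summed to 21.6 to 21.8 and 18.8 to 19.6, and endothelial markers to 12.4 to 13.6 and 13.9 to 16.6. The epithelial, fibroblast and endothelial sums did not overlap between the groups. The summed melanocyte and neural crest markers overlapped, at 211 to 224 in control and 207 to 220 in knockdown arrays. So did the summed leukocyte markers, at 7.01 to 7.63 and 7.54 to 7.77. The share of single probe sets without overlap, 23.9%, is no background for sums. Of single epithelial markers KRT18 was called (log2 0.69, limma adjusted p = 0.00751), while EPCAM, CDH1, KRT8 and KRT5 overlapped and were not called. Taken singly, every fibroblast and endothelial marker overlapped and was not called. Of these, 3 of 5 and 2 of 3 lay below the median probe set in every array. The part of all these markers in the results was not tested.

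Among the inhibitors, PKIB was higher in knockdown cells at all 5 of its probe sets. At the brightest, 11755975_x_at, the intensity was 4.70, 9.42 and 4.58 in control replicates 1, 2 and 3 and 47.3, 43.2 and 44.5 in knockdown replicates 1, 2 and 3. The 3 knockdown arrays lay close together, every one above the highest control, and control replicate 2 was the highest control. The group means were 6.23 ± 2.76 and 45.0 ± 2.10 (SD, n = 3 each), and the log2 difference was 2.94 ± 0.25 (SE), or 7.65-fold. Whether every cell held more of the transcript or a part of the culture held much more cannot be told apart in RNA from whole cultures.

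At 11727553_a_at, a probe set whose ending marks probes for several transcripts of 1 gene, PKIB measured 5.72, 5.55 and 4.90 in control and 34.1, 32.5 and 28.2 in knockdown arrays. Here control replicate 2 lay between the other controls. Its log2 difference was 2.55 ± 0.11 (SE). At 11727554_s_at it measured 3.12, 4.89 and 3.29 in control and 28.2, 27.6 and 27.2 in knockdown arrays, with control replicate 2 again the highest control. That difference was 2.91 ± 0.16 (SE).

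The other two probe sets read the same transcript record as each other and gave smaller differences. At 11732699_a_at PKIB measured 2.82, 2.67 and 2.20 in control and 10.2, 7.53 and 7.61 in knockdown arrays, a log2 difference of 1.71 ± 0.15 (SE). At 11732700_x_at it measured 3.27, 3.54 and 2.85 in control and 9.02, 7.38 and 7.50 in knockdown arrays, a difference of 1.31 ± 0.12 (SE). Knockdown replicate 1 was the highest array at both, and no knockdown array overlapped the controls. Control replicate 2 was the highest control at 11732700_x_at and lay between the other controls at 11732699_a_at. All control intensities of this pair lay below the table's median of 4.88. So did 2 of the 3 control values at 11727554_s_at, which gave 2.91, and 2 of the 3 at the brightest probe set, which gave 2.94. What sets this pair apart from the other probe sets was not tested.

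Ranked by log2 difference among all 49293 probe sets, the 5 PKIB probe sets stood at places 2, 3, 7, 32 and 71 from the top. These places restate the rise that chose the set. Against control replicate 2 alone, the brightest probe set stood at 2.26 and against controls 1 and 3 at 3.28. The corresponding values at 11727553_a_at were 2.51 and 2.57. With 8 added to every intensity before the logarithm, the difference at the brightest probe set was 1.91, since 8 exceeds most control values. The endings _x_at and _s_at mark probes that can bind transcripts of more than 1 gene, and with these left out 2 PKIB probe sets remained, with the differences of 2.55 and 1.71 given above.

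**Figure D1:**
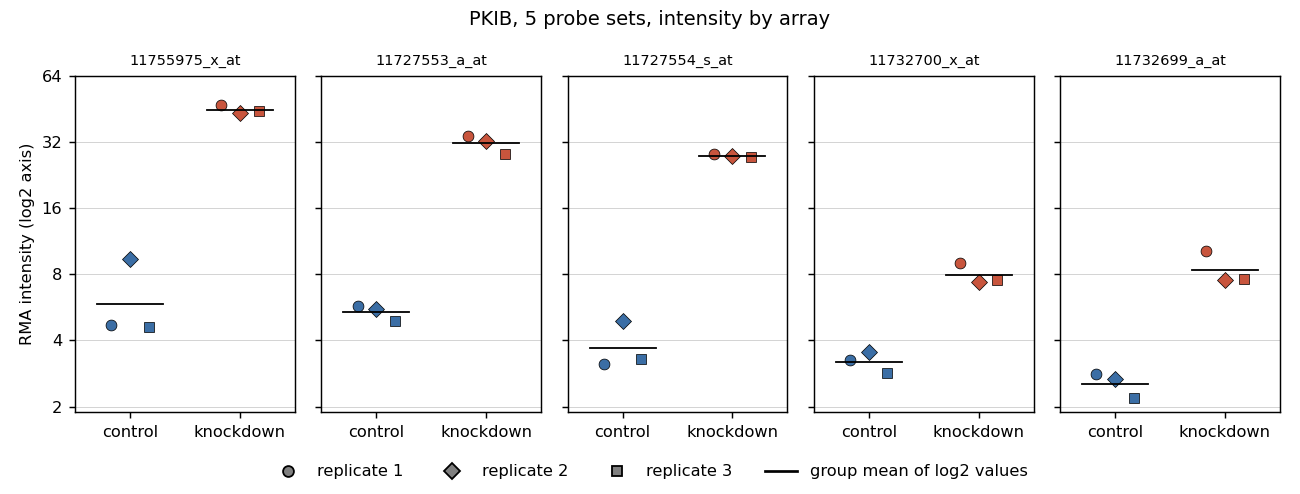
RMA intensity of PKIB (vertical, log2 axis) in control and knockdown arrays at each of its 5 probe sets; points are single arrays, shapes give the replicate number and lines the group mean of log2 values. Every knockdown array lies above every control array at all 5 probe sets. Control replicate 2 stands above the other controls at 11755975_x_at (9.42), 11727554_s_at (4.89) and 11732700_x_at (3.54).

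PKIG, a broadly expressed inhibitor of the same family, lay lower in knockdown cells at each of its 3 probe sets, without overlap and without passing the test. The brightest measured 56.0, 43.9 and 58.6 in control and 39.0, 42.2 and 43.5 in knockdown arrays. Control replicate 2 stood next to the knockdown arrays, just above the highest of them. This gave a log2 difference of -0.34 ± 0.12 (SE, limma adjusted p = 0.172), and the other probe sets gave -0.24 and -0.30. At 11728295_a_at the values were 13.8, 14.4 and 15.97 in control and 12.6, 12.6 and 12.2 in knockdown arrays. There control replicate 2 lay among the controls.

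PKIA, the first described inhibitor, measured 7.32, 8.97 and 6.39 in control and 7.30, 8.18 and 7.19 in knockdown arrays at its brightest probe set. The groups overlapped, with control replicate 2 the highest of the 6 arrays. Their log2 difference was 0.012, with a 95% interval of -0.29 to 0.31. Its other probe sets, at intensities of 1.96 to 3.94, gave 0.099 and -0.19 and lay below the median probe set. The sign of the PKIA difference changed with the arrays left out.

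Among the catalytic subunits, PRKACA, the main catalytic isoform in most tissues, measured 422, 512 and 400 in control and 524, 478 and 493 in knockdown arrays at its brightest probe set. Controls 1 and 3 were the 2 lowest arrays, while control replicate 2 fell within the knockdown range. The log2 difference was 0.17 ± 0.11 (SE, limma adjusted p = 0.461). The other 3 PRKACA probe sets lay between 2.57 and 4.18 in all arrays and gave differences of -0.067 to 0.15.

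PRKACB, the second widely expressed catalytic isoform, measured 167, 118 and 174 in control and 122, 115 and 133 in knockdown arrays at its brightest probe set. Here too controls 1 and 3 stood apart, as the 2 highest arrays, and control replicate 2 lay among the knockdown arrays. The fitted difference was -0.29 ± 0.15 (SE, limma adjusted p = 0.337). At 11754927_x_at the groups did not overlap (5.88, 5.05 and 5.90 against 4.39, 4.58 and 4.86), with a difference of -0.28 ± 0.098 that did not pass the test (limma adjusted p = 0.155). The remaining 2 probe sets gave -0.065 and 0.054.

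Among the regulatory subunits, PRKAR1A, the type I subunit whose loss causes Carney complex, measured 893, 860 and 860 in control and 770, 822 and 782 in knockdown arrays. The groups did not overlap, and the control arrays, replicate 2 included, lay within a narrow range. The fitted log2 difference was -0.14 ± 0.082 (SE, limma adjusted p = 0.414). At 11722007_a_at, which measured 82.8 to 92.0, the groups overlapped with a difference of 0.010, so this probe set does not repeat the gap.

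PRKAR1B, a type I subunit found mostly in the nervous system, measured 15.8, 15.8 and 16.6 in control and 19.9, 16.3 and 20.2 in knockdown arrays. Knockdown replicate 2 lay inside the control range and the other knockdown arrays above it. The difference was 0.22 ± 0.10 (SE), and all 4 PRKAR1B probe sets gave differences between 0.15 and 0.27 in which the groups overlapped.

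PRKAR2A, a widely expressed type II subunit, measured 173, 179 and 164 in control and 180, 181 and 188 in knockdown arrays at its brightest probe set. The groups did not overlap by a narrow margin, 179.3 against 179.97, and the log2 difference was 0.091 ± 0.084 (SE). Its other 3 probe sets gave -0.13, 0.022 and -0.073 with overlapping groups.

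PRKAR2B, the type II subunit best known from brain and fat, measured 26.7, 41.0 and 25.8 in control and 36.2, 32.1 and 35.1 in knockdown arrays. Control replicate 2 was the highest of all 6 arrays, and controls 1 and 3 were the lowest. A log2 difference of 0.18 ± 0.17 was fitted (SE, limma adjusted p = 0.649). Against control replicate 2 alone it was -0.25 and against controls 1 and 3 it was 0.39, so the direction depended on which controls were used. The second PRKAR2B probe set lay below the median probe set, at 3.95 to 4.87. It gave -0.032, and 0.046 against controls 1 and 3.

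**Figure D2:**
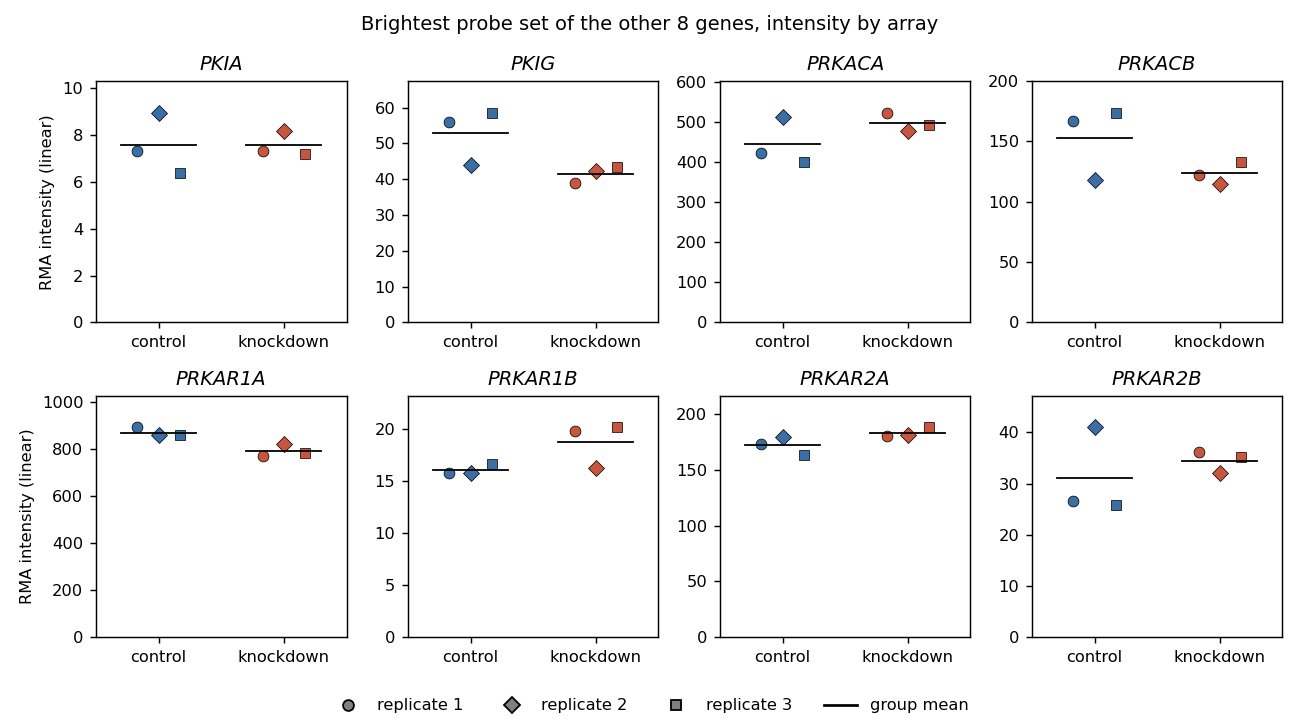
RMA intensity (vertical, linear axis from 0) of the brightest probe set of the other 8 genes in control and knockdown arrays; points are single arrays, shapes give the replicate number and lines the group mean. Control replicate 2 lies with or beside the knockdown arrays for PKIG (43.9), PRKACA (512) and PRKACB (118), and is the highest array for PKIA (8.97) and PRKAR2B (41.0).

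Over the whole table, limma called 2186 probe sets at an adjusted p under 0.05, which is 4.43%. It called 5 of the 32 members, all higher in knockdown cells, and these were the 5 PKIB probe sets that chose the set. Higher calls made up 1.98% of the table and lower calls 2.46%. Of the 27 other probe sets 0 were called by limma, with adjusted p-values from 0.155 to 0.977, and 4 had an unadjusted p under 0.05, the 3 of PKIG and 1 of PRKACB, beside 19.5% of all probe sets. Their median log2 difference was -0.032, against 0.0048 over all probe sets, and every one of the 27 lay between -0.34 and 0.27. The 95% intervals of the 27 reached from -0.63 to 0.62 at their widest. Of the 27, 9 had a mean intensity below the median probe set, where folds come out too small and a narrow interval does not bound the change of the transcript. The groups did not overlap in 6 of the 27, 1 higher and 5 lower, while of all probe sets 23.9% did not overlap, 12.1% higher and 11.7% lower.

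Without control replicate 2, limma called 6599 probe sets, or 13.4% of the table, and 9 members. The additional 4 calls were the brightest probe sets of PKIG (log2 -0.46 ± 0.092 SE, limma adjusted p = 0.0146), PRKACB (-0.47 ± 0.098, adjusted p = 0.0177) and PRKAR2B (0.39 ± 0.093, adjusted p = 0.0298) and a second PRKACB probe set (-0.36 ± 0.090, adjusted p = 0.0371). These 4 of 27 probe sets stand beside a background of 13.4%. The second PRKAR2B probe set, at 0.046, was not called in this fit. In the other 5 fits that each left out 1 array, 0 of the 27 probe sets outside PKIB were called, beside 0.793% to 1.64% of all probe sets. Control replicate 2 was the highest of the 6 arrays at 7 of the 27 probe sets and the lowest at 3, against 15.8% and 16.7% over the whole table.

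**Figure D3:**
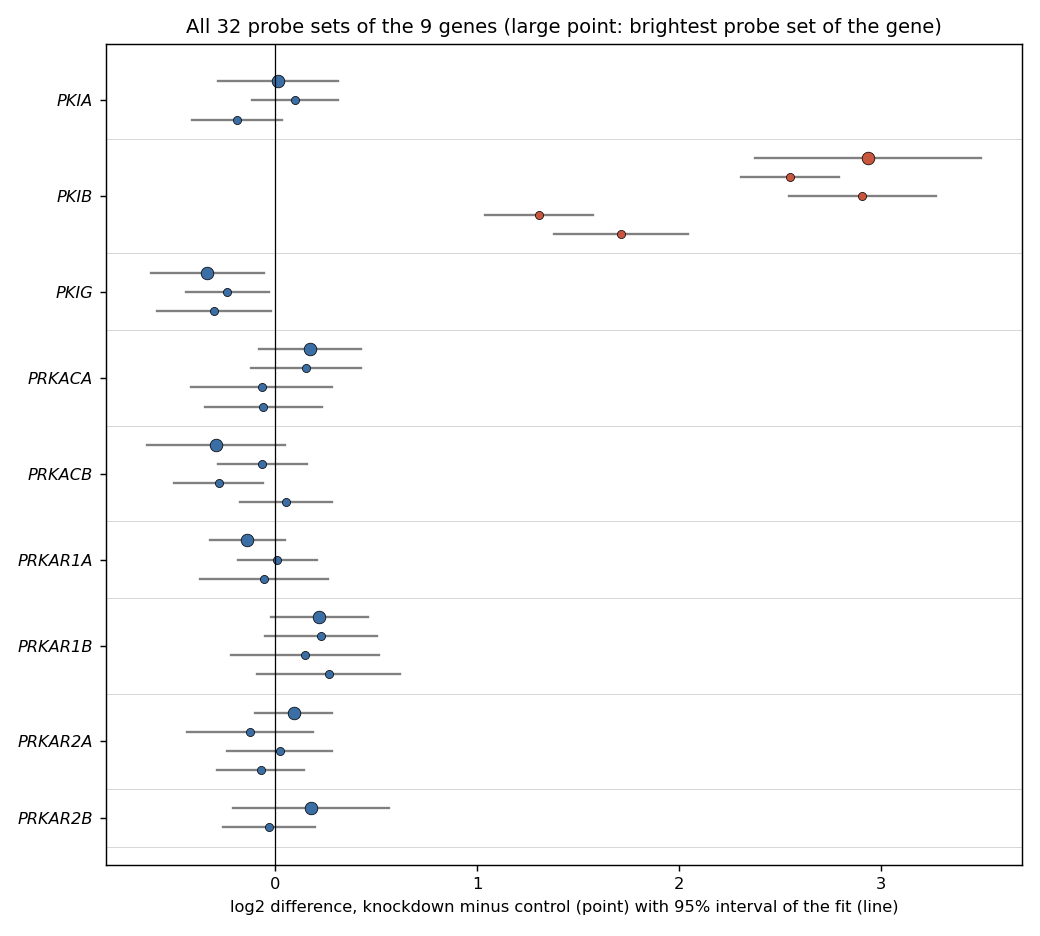
Log2 difference (horizontal, knockdown minus control) of all 32 probe sets, grouped by gene, with the 95% interval of the limma fit as a line; large points are the brightest probe set of each gene. The 5 PKIB probe sets lie between 1.31 and 2.94 and the other 27 between -0.34 and 0.27. The PKIB intervals describe the gene that chose the set and carry no test.

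The pathway around the kinase was read from 6 lists, 1 probe set per gene, the one with the highest mean. Of 111 listed genes 100 were measured, and limma called 5 higher and 4 lower. Over all 18132 genes read the same way 5.82% were called, 2.71% higher and 3.12% lower. The median log2 difference was 0.050 over the listed genes and 0.011 over all genes. The counts moved with the arrays used. Without control replicate 2, 20 of the 100 genes were called, beside 16.8% of all genes. Without control replicate 1 or 3 it was 3 and 4, beside 1.97% and 2.20%. Without 1 knockdown array it was 2 or 3, beside 1.11% to 1.49%.

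Of 21 measured A-kinase anchoring genes, 0 rose, 1 fell and 20 were not called (median 0.038). AKAP7, which anchors the kinase at membranes and ion channels, measured 24.7, 24.3 and 30.1 in control and 15.97, 16.7 and 16.7 in knockdown arrays. Control replicate 2 lay with the controls, and the log2 difference was -0.67 ± 0.10 (SE, limma adjusted p = 0.0126). Of its 7 probe sets 2 were called, and the call was lost without any 1 knockdown array, with values of -0.73 to -0.57 over the 6 fits.

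The list for cAMP synthesis and its control held receptors, stimulatory and inhibitory G proteins and adenylate cyclases. Of its 20 measured genes, 1 rose, 1 fell and 18 were not called (median 0.055). PTGER4, a prostaglandin E2 receptor that raises cAMP, measured 5.16, 11.1 and 5.10 in control and 14.7, 14.8 and 14.2 in knockdown arrays, a log2 difference of 1.14 ± 0.26 (SE, limma adjusted p = 0.0493). Control replicate 2 lay between the other controls and the knockdown arrays. The second PTGER4 probe set gave 0.012. The adenylate cyclase gene ADCY7 measured 34.7, 30.2 and 36.5 in control and 22.6, 23.3 and 26.6 in knockdown arrays, a difference of -0.48 ± 0.11 (adjusted p = 0.0432), called at 1 of 3 probe sets. Among the fits without 1 array, both genes were called only without control replicate 2, at 1.51 and -0.56.

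Of 14 measured phosphodiesterases that break down cAMP, 1 rose and 13 were not called (median 0.060). PDE4B, which is itself induced by cAMP in many cells, measured 7.82, 8.78 and 10.4 in control and 13.8, 16.5 and 15.0 in knockdown arrays. The groups did not overlap, and control replicate 2 lay between the other controls. Its log2 difference was 0.76 ± 0.12 (SE, limma adjusted p = 0.0148). It was called at 1 of 4 probe sets and, among the fits without 1 array, only without control replicate 2 or 3 (0.66 to 0.86 over the 6 fits).

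Of 14 measured genes for other cAMP effectors and regulators of the kinase, 0 rose, 1 fell and 13 were not called (median -0.034). The list includes PRKACG, a further catalytic subunit gene that is not among the members. It lay at 2.38 to 2.96 in all arrays and was not called (log2 0.064). POPDC1, a membrane protein that binds cAMP, measured 7.03, 5.99 and 6.20 in control and 4.87, 4.90 and 4.72 in knockdown arrays (log2 -0.40 ± 0.093 SE, limma adjusted p = 0.0472). It was called at 1 of 3 probe sets and, among the fits without 1 array, only without control replicate 2 (-0.45). Of 9 measured genes of the CREB family and its coactivators, 0 were called by limma and 2 had an unadjusted p under 0.05, beside 22.7% of all genes. CRTC3 is named because the rule takes the smallest p where no gene passed. The value of CRTC3, a CREB coactivator, was -0.33 ± 0.0996 (SE, limma adjusted p = 0.109), and it was called only without control replicate 2.

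Of 25 measured genes known to be induced by cAMP in 1 cell type or another, 4 rose, 1 fell and 20 were not called (median 0.093). BDNF, a neurotrophin with a cAMP-responsive promoter, measured 42.5, 36.9 and 35.6 in control and 96.5, 103 and 109 in knockdown arrays. The controls, replicate 2 included, lay together. That is a log2 difference of 1.43 ± 0.10 (SE, limma adjusted p = 0.000443), with all 5 probe sets called. CITED2, a coregulator that binds CBP and p300, measured 49.8, 52.8 and 40.6 in control and 96.6, 94.0 and 111 in knockdown arrays. Its difference was 1.08 ± 0.12 (adjusted p = 0.00349) and 1 of its 2 probe sets was called. Both BDNF and CITED2 were called in all 6 fits without 1 array.

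The other called targets passed in fewer of the fits. NR4A1, an immediate early nuclear receptor, measured 35.7, 24.97 and 29.4 in control and 20.2, 20.0 and 17.3 in knockdown arrays (log2 -0.63 ± 0.14 SE, limma adjusted p = 0.0388, 2 of 7 probe sets called). MITF, the melanocyte transcription factor downstream of cAMP, falls outside the rule for naming genes and was chosen after its values were seen. It measured 50.6, 79.4 and 52.8 in control and 122, 116 and 118 in knockdown arrays (0.99 ± 0.16, adjusted p = 0.0151, both probe sets called). Of the other lineage markers above the median probe set, S100B and SOX10 fell (-1.31 and -0.54) and PAX3, at -0.31, was not called. Among the fits without 1 array, NR4A1 and MITF were called only without control replicate 2, at -0.76 and 1.20. The fourth called rise on this list was PDE4B, described above. The largest difference on the list, also named after its values were seen, was that of EGR1, an immediate early transcription factor, and it was not called (-1.99 ± 0.47 SE, limma adjusted p = 0.0513). EGR1 measured 82.7, 19.4 and 73.7 in control and 11.9, 11.4 and 13.9 in knockdown arrays, with control replicate 2 far below the other controls. ATF3, a stress-induced factor also named after its values were seen, stood at -0.83 with overlapping groups (31.6, 8.02 and 29.8 against 11.4, 10.0 and 11.7) and was not called. Control replicate 2 was the lowest of the 6 arrays for ATF3. RGS2, likewise named after its values were seen, went the other way and was not called (1.02 ± 0.31 SE, limma adjusted p = 0.111). It measured 27.8, 71.5 and 29.3 in control and 74.8, 80.9 and 79.5 in knockdown arrays, with control replicate 2 close to the knockdown arrays.

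**Figure D4:**
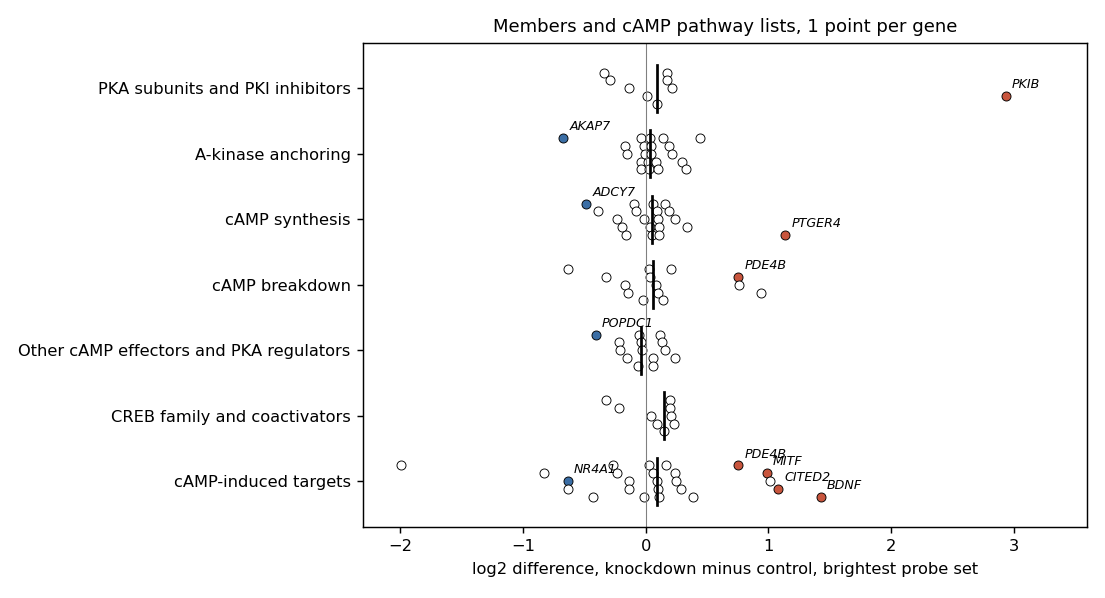
Log2 difference (horizontal, knockdown minus control) of the brightest probe set of each gene in the PKA family and in 6 lists of the cAMP pathway; filled points were called by limma, red higher and blue lower in knockdown cells, and black bars are list medians. PKIB stands at 2.94. It was chosen as the largest rise of all genes, so its place beyond the listed genes was fixed in advance and its filled point is a description. Of the listed pathway genes, BDNF (1.43) and PTGER4 (1.14) were the largest called rises.

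The genes on either side of PKIB on chromosome 6 were read from RefSeq order, taking the 3 nearest measured protein-coding genes on each side. SMPDL3A, an acid sphingomyelinase-like phosphodiesterase and the second measured gene after PKIB, measured 10.5, 9.71 and 8.21 in control and 13.5, 14.9 and 15.0 in knockdown arrays (log2 0.62 ± 0.11 SE, limma adjusted p = 0.0206). FABP7, a fatty acid binding protein of glia and melanoma and the first measured gene after PKIB, went the other way, with 26.7, 23.7 and 30.0 in control and 9.96, 13.2 and 15.5 in knockdown arrays (-1.07 ± 0.16, adjusted p = 0.0116). Of the 2 FABP7 probe sets 1 was called and the other gave 0.0052. Control replicate 2 lay among or just below the other controls for both genes. Without knockdown replicate 2 FABP7 was not called, and SMPDL3A was called only without control replicate 1 or 2. TBC1D32 (-0.38), GJA1 (-0.068) and SERINC1 (-0.057) before PKIB, and CLVS2 (-0.031) after it, were not called.

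The genes nearest to PKIB in their pattern over the 6 arrays were found by the mean absolute distance between log2 profiles, each centred on its own mean. The nearest 5 were NEFL (a neurofilament chain, distance 0.23), LRRC17 (a secreted leucine-rich repeat protein, 0.27), TNFSF9 (a TNF family ligand, 0.38), STC1 (a secreted glycoprotein, 0.42) and FGFBP1 (a carrier of fibroblast growth factors, 0.46). Control replicate 2 stood above the other controls in NEFL, LRRC17, TNFSF9 and FGFBP1, as it did for the brightest PKIB probe set, but was the lowest array for STC1. FGFBP1 measured 5.48, 36.2 and 6.23 in control and 53.3 to 55.6 in knockdown arrays and was not called (limma adjusted p = 0.0669). A centred distance of this kind picks genes with a difference of like size and says nothing about shared function.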

How the data were processed

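RNA of 6 arrays was analysed, 3 control and 3 knockdown, grouped by the sample titles. The deposited values are intensities, 1 per probe set. The submitters' processing notes name RMA, without a version. That the scale is linear was judged from the range, 1.55 to 6658. Depth does not apply to arrays, and their number limits the precision. Symbols came from the platform annotation, checked through Entrez identifiers against RefSeq (GRCh38.p14), which changed 0 symbols. Of 49293 probe sets 44988 had 1 symbol, 1832 several and 2473 none, and 1 probe set that names a member beside another gene was left out.

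Log2 of the intensity was fitted for all probe sets with limma 3.58.1 (R 4.3.3, lmFit and eBayes, no trend, no pseudocount, no filter), with Benjamini-Hochberg adjustment over the table and a threshold of 0.05. A difference is called when it passes. The SE and 95% interval are those of the fit. The fit was tested on simulated arrays. Other steps used Python 3.11.15 with pandas 2.3.3, numpy 2.4.6 and matplotlib 3.10.9. Members, lists and naming rule (all member probe sets, MAP4K5, per list up to 2 largest called rises and 2 falls or else the smallest p, the 5 nearest profiles, the 3 neighbours on each side) were chosen with earlier results of these data known. The alternatives were a replicate block, an intensity trend, array weights, 2 scalings, leaving out the lowest 25% or 50%, adding 8 to the intensity, 1 or the mean probe set per gene, leaving out _x_at and _s_at probe sets, and leaving out each array. The labels give no scan date or batch.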

Additional observations from a re-analysis of the deposited data

How the results depend on the processing

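PKIB lay higher in knockdown cells under all 17 alternatives run, at 2.76 to 3.28 over the 6 fits without 1 array, 2.28 as the mean of its probe sets and 1.91 with 8 added to the intensity. PKIB was chosen for this rise, so these values are a description and carry no test. Called members numbered 5 to 9 without 1 array, 1 with 1 probe set per gene, 1 with the mean per gene and 2 without _x_at or _s_at probe sets, where 9, 9 and 20 members entered the fit. Called probe sets numbered 391 to 6599 without 1 array, or 0.793% to 13.4% of the table, and 4652 with array weights, or 9.44%. With 1 probe set per gene 1420 of 18132 were called (7.83%), and with the mean per gene 1150 of 18132 (6.34%). Without _x_at or _s_at probe sets 1367 of 34921 were called (3.91%). The share in the main fit was 4.43%. Called genes of the pathway lists numbered 2 to 20 without 1 array, beside 1.11% to 16.8% of all genes, and 15 with array weights. PKIA, not called, changed sign to -0.026 with the mean per gene and to -0.19 without _x_at or _s_at probe sets, and ranged from -0.10 to 0.14 without 1 array. PRKAR2A, not called, changed sign to -0.022 with the mean per gene. MAP4K5 stayed called throughout, at -2.01 to -1.63. With the replicate number as a block 1990 probe sets (4.04%) and 5 members were called. The numbers were not taken as pairing the samples, since same-numbered arrays deviated together with correlations of -0.0999, 0.032 and 0.095. Fits without 1 array leave 5 arrays, and dim probe sets near the background limit any statement about PKIA and the weaker probe sets of PRKACA, PRKACB and PRKAR2A.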
